A study of Brassica napus with 12 samples.

Results

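The 6 polysomal RNA libraries of one canola experiment, labelled PEG, were compared with the 6 libraries of a second one, labelled EUE. Together these were all 12 libraries of the series, and the 2 groups of 6 were formed from the experiment named in each library's title. Canola is Brassica napus. The series was made to compare selected lines, chosen for NAD(P)H-rich leaves that respire little, with control lines, and both experiments included lines of both kinds. In PEG these were PEG control, PEG-1 and PEG-2, of which the last pair had been selected, each sequenced as 2 libraries. In EUE they were EUE control and the selected EUE epiline, each sequenced as 3 libraries. Plants of all 5 lines were 26 days old, had grown for 2 weeks on agar with sucrose and for 12 days in soil, and received no treatment. RNA came from leaf 4. The labels give 1 cultivar for all lines and call the libraries biological replicates, without saying how many plants went into each or when each experiment was grown. Each line belonged to 1 experiment, so experiment and plant stock cannot be told apart in any value below.

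Brassica napus is an allotetraploid: it carries 1 genome from Brassica rapa and 1 from Brassica oleracea, so most of its genes exist as near-identical copies. Polysomes are mRNAs carrying several ribosomes, pelleted here through sucrose, and their RNA depends on the amount of a transcript and on its translation together. Total RNA, which would separate these, was not analysed here. In bulk leaf tissue fewer cells of a type and less RNA per cell cannot be told apart either.

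Read counts were available for 60756 IDs, and library totals ran from 36210542 to 42696798 counts. The IDs carry no gene name and came in 3 classes by their form: 21922 began with ERF, 17574 began with ERC, and 21260 joined an ERF and an ERC number with a hyphen. The labels do not say what the letters or the joining stand for, so no function, gene family or marker of a cell type could be read from them. After a filter on low counts 36410 IDs were tested, of which 17297 were joined, 10485 were ERF only and 8628 were ERC only. Another 13162 IDs were at 0 in all 12 libraries, and most of these were single IDs, 6490 ERF only and 5017 ERC only against 1655 joined ones.

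Polysomal RNA differed widely between the experiments, about as often upward as downward. Of the tested IDs, 3724 were higher in PEG and 3724 were lower, each 10.2% of those tested and 20.5% together (edgeR quasi-likelihood test on the mean of the 3 PEG lines against the mean of the 2 EUE lines, Benjamini-Hochberg adjusted p under 0.05, the threshold for an ID called different here). The difference was at least 2-fold and called for 4182 IDs (11.5%), at least 4-fold for 1646 (4.52%) and at least 8-fold for 867 (2.38%). For 4200 IDs (11.5%) the normalised counts of the 2 experiments did not overlap. All 6 PEG libraries lay above all 6 EUE libraries for 2352 of them (6.46%), and the reverse held for 1848 (5.08%).

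The number of calls depended on how the libraries were treated. Same-numbered libraries of an experiment deviated together from their line means across 17413 IDs. In PEG r was 0.53 to 0.69 over 6 pairs, and in EUE it was 0.60 to 0.73 over 3 pairs. With 2 libraries per PEG line the 2 deviations mirror each other, so each PEG r occurs for 2 pairs. Across experiments, same-numbered libraries had r from -0.60 to 0.03. Other-numbered ones had r from -0.22 to 0.60, over 0.1 in 12 of 24 pairs, and the mirrored PEG deviations enter these values too. The 12 libraries are therefore not 12 separate draws, and with same-numbered libraries summed, leaving 2 PEG against 3 EUE values, 1423 IDs were called, 868 of them higher in PEG. A block for these numbers within each experiment gave 15350 calls instead. Leaving out 1 library gave 4724 calls without PEG control replicate 2, 4390 without PEG-1 replicate 2 and 4112 without PEG-2 replicate 2.

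**Figure D1:**
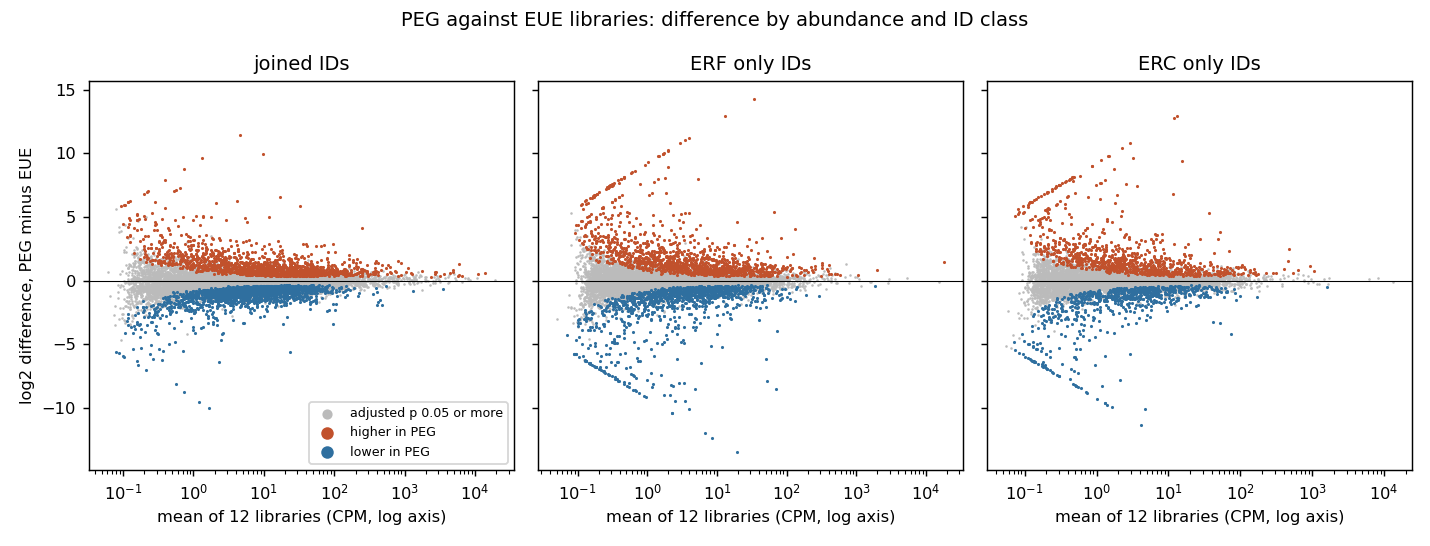
Log2 difference between the PEG and EUE lines (vertical axis) against the mean normalised count over the 12 libraries, scaled to library size and composition (CPM, horizontal log axis), 1 panel per ID class and 1 point per tested ID, with called IDs coloured. The cloud narrows from left to right, and at 4-fold and more it holds 2.39% of joined, 6.82% of ERF-only and 5.99% of ERC-only IDs as calls; diagonal streaks at low CPM are IDs at 0 in one experiment.

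Large differences were more frequent among single IDs than among joined ones. At least 4-fold and called were 414 of 17297 joined IDs (2.39%), 715 of 10485 ERF-only IDs (6.82%) and 517 of 8628 ERC-only IDs (5.99%), beside the 4.52% of all tested IDs. Single ERF and ERC IDs thus held most of the calls of that size, while joined IDs were 47.5% of those tested and 25.2% of them. In each class more of these IDs were higher in PEG than lower: 239 against 175 joined, 389 against 326 ERF only and 308 against 209 ERC only.

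Abundance was measured in CPM, the count divided by the library total, after scaling of that total for composition, and multiplied to a common total. Single IDs were also less abundant, with a median of 2.59 CPM for ERF only and 2.23 CPM for ERC only against 8.47 CPM for joined ones. The difference between classes was therefore read within bins of mean CPM. Under 1 CPM, 9.42% of joined, 13.1% of ERF-only and 12.2% of ERC-only IDs were called with at least 4-fold. From 5 to 20 CPM these shares were 0.806%, 2.22% and 1.58%. At 100 CPM and more they were 0.477%, 1.14% and 0.935%, from 4, 2 and 1 IDs. Joined IDs had the lowest share and ERF-only IDs the highest in each of the 5 bins.

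Some of these differences were between counted and not counted, for which a fitted fold change has no fixed size. Of the 1646 IDs, 245 had no count in any library of one experiment, and without such IDs the shares at 4-fold were 2.25% of joined, 5.74% of ERF-only and 4.89% of ERC-only IDs. Joined IDs also had the lowest and ERF-only IDs the highest share at 4-fold in 30 of 30 settings of the fit. The joined share itself moved from 2.39% to 0.903% with a filter of 5 CPM in 2 libraries, to 1.12% with same-numbered libraries summed and to 1.25% with a 2-fold minimum. Among libraries left out singly, PEG control replicate 1 moved it most, to 3.62%.

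For calls of any size the classes lay closer together. Called were 3350 joined IDs (19.4%, 1551 higher in PEG and 1799 lower), 2379 ERF-only IDs (22.7%, 1230 higher and 1149 lower) and 1719 ERC-only IDs (19.9%, 943 higher and 776 lower), against 20.5% of all. ERF-only IDs exceeded joined ones in each abundance bin, from 19.7% against 17.8% under 1 CPM to 27.8% against 19.9% at 100 CPM and more. ERC-only IDs were below joined ones from 1 to 20 CPM and above them in the other bins. Joined IDs had the lowest share in 22 of 30 settings only, and with PEG-2 replicate 2 left out the shares fell to 9.16% of joined, 13.4% of ERF-only and 11.2% of ERC-only IDs. Without PEG control replicate 2 they were 11.1%, 14.9% and 12.3%, and without PEG-1 replicate 2 they were 9.99%, 14.1% and 11.9%. The joined share alone moved past 1.5 times without PEG-1 replicate 1, to 12.6%, and without EUE epiline replicate 2, to 12.2%.

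**Figure D2:**
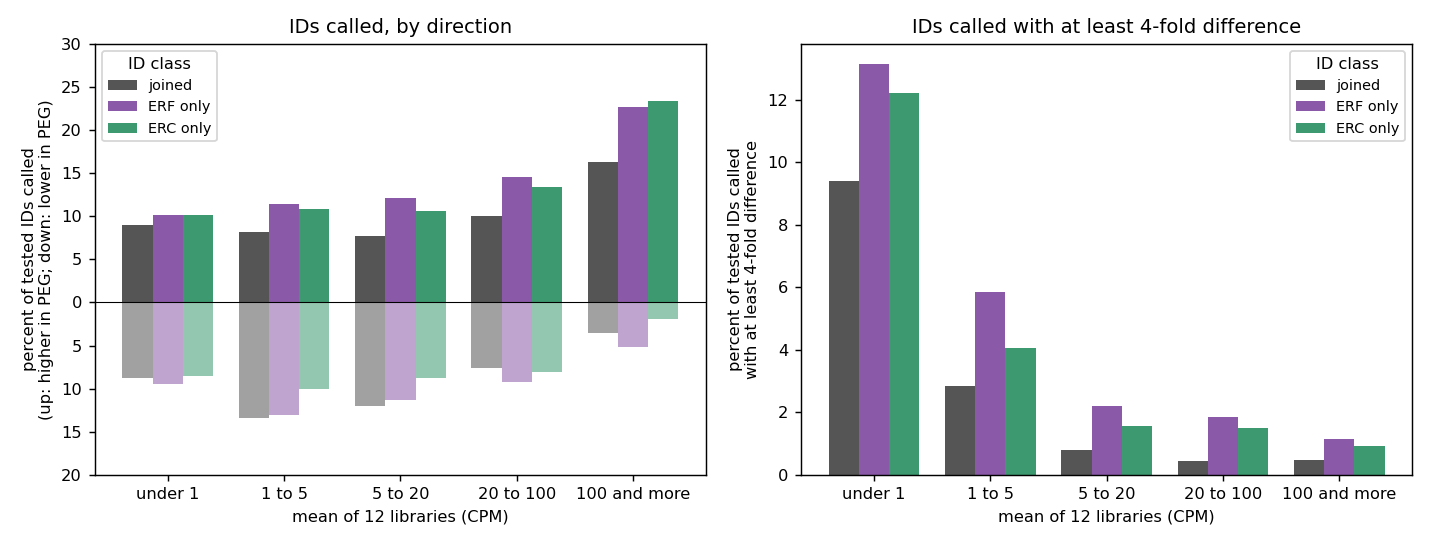
Percent of tested IDs (vertical axes) in 5 bins of mean CPM (horizontal axis) for joined, ERF-only and ERC-only IDs: on the left those called higher in PEG (upward bars) and lower in PEG (paler downward bars), on the right those called with at least 4-fold. On the right the shares fall with abundance from 9.42%, 13.1% and 12.2% under 1 CPM, with joined IDs lowest in each bin; on the left upward bars far exceed downward ones at 100 CPM and more, 18.0% against 3.65% over all classes.

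The share of IDs called changed little with abundance, but the size and the direction of the differences did. Called were 18.8% of IDs under 1 CPM, 22.3% from 1 to 5, 20.6% from 5 to 20, 19.2% from 20 to 100 and 21.7% at 100 CPM and more. The median size of the log2 difference fell over these bins from 0.72 to 0.43, 0.28, 0.26 and 0.29, and its median standard error from 0.49 to 0.25, 0.17, 0.15 and 0.16. The most abundant IDs leaned toward PEG. At 100 CPM and more, 202 of 1122 IDs were higher in PEG (18.0%) and 41 were lower (3.65%), so that 83.1% of the calls were higher, against 50% of calls over all IDs. The number of these calls was less stable than their direction: the 243 became 121 (98 higher) without PEG-2 replicate 2, 132 (110 higher) without PEG-1 replicate 2, 141 (114 higher) without PEG control replicate 2 and 158 (129 higher) without EUE epiline replicate 2. With same-numbered libraries summed 20 IDs of this abundance were called, 15 of them higher in PEG.

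This lean among abundant IDs kept its side under each setting tried, from 63.3% of calls higher with library totals as the only scaling to 87.7% in the fit without the line PEG-1. Scaling matters here because TMM, the composition scaling used, set the PEG libraries at factors of 0.909 to 0.994 and the EUE libraries at 0.964 to 1.11. With library totals only, the median log2 difference of all IDs moved from -0.047 to -0.18, and 34.7% of all calls were higher in PEG. Calls of joined IDs from 1 to 20 CPM went the other way, with 38.6% higher in PEG, but this side was not stable: it was 57.4% with a 2-fold minimum and 59.9% with same-numbered libraries summed.

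The share of counts held by the most abundant IDs differed as well. The 100 most abundant IDs of a library took 36.8% to 39.4% of its counts in PEG and 33.9% to 37.1% in EUE, with means of 38.1% ± 0.992 and 35.3% ± 1.34 (SD, n = 6 each). The ranges overlapped, since PEG-2 replicate 1 lay below EUE control replicates 1 and 3. The difference of 2.82 percentage points had an exact permutation p of 0.00649 (two-sided, 0.0152 after Benjamini-Hochberg adjustment over 7 library measures). Over line means, 3 against 2, it had an exact p of 0.1, the smallest that can be reached. Over means of same-numbered libraries the adjusted exact p was 0.467. Part of the difference came from 1 ID, ERF91594, which took a mean of 2.54% of the counts in PEG and 0.989% in EUE. Over the settings tried the difference ran from 1.85 to 3.17 points.

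Single IDs also took different shares of the counts, in opposite directions for the 2 kinds. ERF-only IDs held 17.5% to 17.9% of the counts in PEG libraries and 16.0% to 17.2% in EUE libraries, with means of 17.7% ± 0.164 and 16.8% ± 0.435 (SD, n = 6 each). ERC-only IDs held 11.7% to 12.0% in PEG and 12.1% to 12.5% in EUE, with means of 11.8% ± 0.114 and 12.3% ± 0.183. Neither pair of ranges overlapped. Both differences, 0.887 and -0.499 percentage points, had an exact permutation p of 0.00216, the smallest that 6 against 6 can give, and 0.00758 after adjustment. That test treats the 12 libraries as separate draws. Over line means, 3 against 2, both had an exact p of 0.1 (0.175 adjusted), and over means of same-numbered libraries, 2 against 3, an adjusted exact p of 0.467, so neither passed in designs too small to reach 0.05. Joined IDs held 70.5% ± 0.243 and 70.9% ± 0.560, a difference of -0.388 points with an exact permutation p of 0.143, or 0.25 adjusted.

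The ERF-only difference rested on 1 ID. ERF91594 alone took 1.92% to 2.96% of the counts of a PEG library and 0.810% to 1.44% of an EUE library. Without its counts the ERF-only share turned to 15.5% in PEG and 15.9% in EUE, with an exact permutation p of 0.0887. The joined share then became the higher one in PEG, by 0.745 points, with an exact permutation p of 0.0404 after adjustment over the 7 measures. The ERC-only share stayed lower in PEG, with a difference of -0.313 points and the same adjusted p. The 3 shares add up to the whole, so removing counts of 1 class moves the others. Without their own largest contributor, ERF60795-ERC24906, the difference for joined IDs was -0.520 points instead (exact permutation p of 0.0519, or 0.0779 adjusted over 3 such tests). Without ERC36551, the ID that took most from the ERC-only share, the difference of that share was -0.302 points. It did not pass the threshold (exact permutation p of 0.0238, or 0.0714 adjusted over 3 such tests). Values adjusted over 7 measures and over 3 tests cannot be compared directly, and all of them treat the 12 libraries as separate draws.

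The number of IDs detected, with at least 6 counts in a library, gave no such difference. Joined IDs detected averaged 17003 ± 77.7 in PEG and 17058 ± 114 in EUE. For ERF-only IDs the means were 10079 ± 107 and 10141 ± 253, and for ERC-only IDs 8347 ± 121 and 8375 ± 220 (SD, n = 6 each). The ranges overlapped in every class, and the exact permutation p was 0.361, 0.569 and 0.799.

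**Figure D3:**
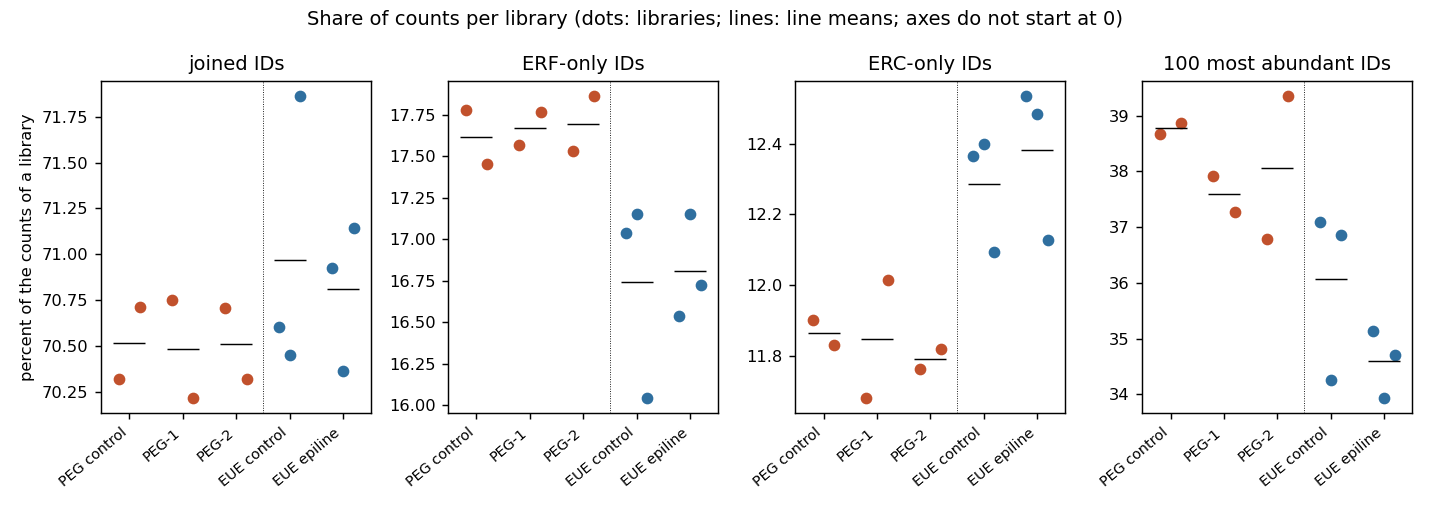
Percent of a library's counts (vertical axes) in joined, ERF-only and ERC-only IDs and in the library's 100 most abundant IDs, 1 point per library by line (horizontal axis), with a short line at the mean of each line; the vertical axes do not start at 0. The PEG points lie above all EUE points for ERF-only IDs (17.5% to 17.9% against 16.0% to 17.2%) and below them for ERC-only IDs.

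A small set of IDs was counted in one experiment only. In PEG 89 IDs had at least 6 counts in each of the 6 libraries and none in any EUE library, and in EUE 65 IDs had the reverse pattern. The 89 consisted of 7 joined, 47 ERF-only and 35 ERC-only IDs, and the 65 of 3 joined, 36 ERF-only and 26 ERC-only IDs. Single IDs thus made up nearly all of them. Counted in PEG only were 0.0329% of joined, 0.214% of ERF-only and 0.199% of ERC-only IDs, beside 0.146% of all IDs in the file. Counted in EUE only were 0.0141%, 0.164% and 0.148%, beside 0.107% of all. These shares were not read within bins of mean CPM, although single IDs were less abundant than joined ones. Most were of low abundance, with a median of 0.781 CPM (0.251 to 66.8) for the 89 and of 0.922 CPM (0.251 to 38.4) for the 65. At least 5 CPM was reached by 9 and 4 of them. The counts set by this rule moved with the minimum, to 33 and 28 with at least 20 counts per library and to 136 and 109 when up to 2 counts were allowed in the other experiment.

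Individual IDs show how the differences looked library by library. In each class and direction 2 were taken among called IDs that averaged 5 CPM or more and showed no overlap between the experiments: the one with the smallest p and the one with the highest mean CPM. The adjusted p and log2 differences given for them come from the edgeR quasi-likelihood fit over all lines, and the non-overlap was required by the choice. Between 127 and 573 IDs per class and direction met these conditions.

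Among ERF-only IDs, ERF76920 was the on-or-off case. It ran from 53.7 to 82.5 CPM in PEG libraries (median 65.6; counts of 1940 to 3074) and had no count in any of the 6 EUE libraries. Its mean of 66.8 ± 12.0 CPM (SD, n = 6) was at least 456-fold higher than the floor of 6 counts per library, with an adjusted p of 3.84e-07. All 3 PEG lines carried it, control line included. ERF91594 was the second most abundant ID of all. It ran from 19374 to 32571 CPM in PEG (median 26435) and from 7305 to 14031 CPM in EUE (median 9003), a log2 difference of 1.5 ± 0.19 (SE), or 2.83-fold, with an adjusted p of 0.00035. Its highest EUE library was EUE control replicate 1 and its lowest PEG library was PEG-2 replicate 1.

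In the opposite direction, ERF62610 had the smallest p of all tested IDs. It ran from 0.851 to 1.18 CPM in PEG (median 1.04) and from 17.2 to 19.9 CPM in EUE (median 19.0), a log2 difference of -4.17 ± 0.13 (SE) with an adjusted p of 4.62e-08. Libraries of one experiment were nearly alike for it, in both control and selected lines. ERF87900 spread more, from 95.8 to 266 CPM in PEG (median 164) and from 278 to 501 CPM in EUE (median 408). Its log2 difference was -1.22 ± 0.22 (SE), with an adjusted p of 0.00357. The experiments nearly met, at PEG control replicate 1 and EUE control replicate 1, and in each PEG line replicate 2 was the lower one.

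Among ERC-only IDs, ERC36061 ran from 26.1 to 34.5 CPM in PEG (median 31.5), while its EUE libraries held 2, 0 and 0 counts in the control line and 6, 2 and 4 in the epiline. Its adjusted p was 5.24e-08. ERC42864 differed by less and was steadier, from 1215 to 1416 CPM in PEG (median 1363) and from 677 to 922 CPM in EUE (median 767). That is a log2 difference of 0.79 ± 0.11 (SE) with an adjusted p of 0.000821. ERC38693 was far lower in PEG, from 5.78 to 8.92 CPM (median 8.19) against 112 to 165 CPM in EUE (median 146). Its log2 difference was -4.18 ± 0.17 (SE), with an adjusted p of 1.29e-07. ERC31276 separated the experiments by the smallest margin, from 888 to 1685 CPM in PEG (median 1359) and from 1721 to 2165 CPM in EUE (median 1886). Its log2 difference of -0.53 ± 0.12 (SE) had an adjusted p of 0.0128, and the call was lost without the line PEG-1 (adjusted p 0.125) or the EUE epiline (adjusted p 0.0763).

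Among joined IDs, ERF90756-ERC29593 ran from 14.6 to 23.4 CPM in PEG (median 19.97), while its 6 EUE libraries held no count but for 2 counts in EUE control replicate 3 and 2 in EUE epiline replicate 1. Its adjusted p was 1.64e-07. ERF60795-ERC24906 was among the 16 most abundant IDs, from 5981 to 13823 CPM in PEG (median 7782) and from 2723 to 4713 CPM in EUE (median 3214). Its log2 difference was 1.27 ± 0.24 (SE), with an adjusted p of 0.00398. Replicate 2 was above replicate 1 in each PEG line for it. ERF86498-ERC37323 ran from 0.483 to 1.54 CPM in PEG (median 0.895) and from 37.5 to 50.3 CPM in EUE (median 47.2), a log2 difference of -5.64 ± 0.26 (SE) with an adjusted p of 3.57e-07. ERF85764-ERC33080 ran from 2443 to 2921 CPM in PEG (median 2655) and from 3406 to 5411 CPM in EUE (median 4470). Its log2 difference was -0.69 ± 0.13 (SE), with an adjusted p of 0.00454.

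With same-numbered libraries summed, 5 of the 12 were no longer called, with an adjusted p of 0.0622 for ERF60795-ERC24906, 0.168 for ERF85764-ERC33080, 0.0842 for ERF87900, 0.0655 for ERC42864 and 0.255 for ERC31276. These were all chosen for their abundance. The 6 chosen by smallest p and ERF91594 were still called in that fit. No library left out alone ended the call of any of the 12. They were chosen from these same libraries for their calls and non-overlap, which favours such persistence.

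**Figure D4:**
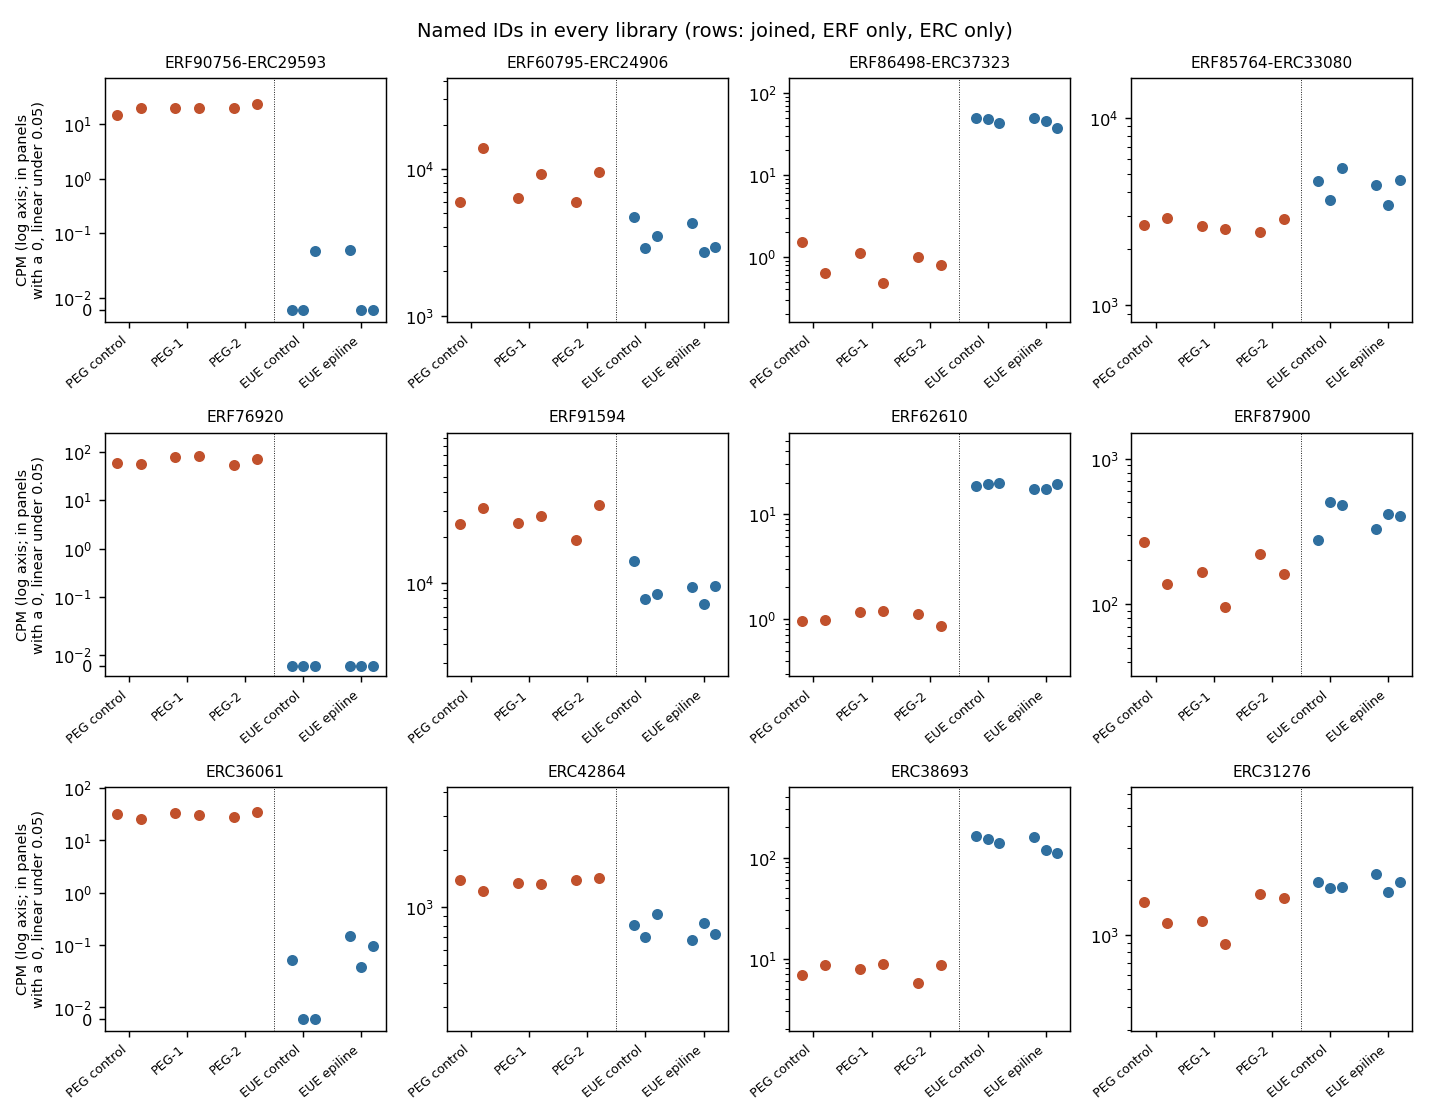
Normalised counts in CPM (vertical axes, on a log scale that turns linear under 0.05 CPM in panels that hold 0) of the 12 named IDs, 1 panel per ID and 1 point per library, with the libraries grouped by line along the horizontal axis. In every panel the 6 PEG and 6 EUE points are separate, as the choice of IDs required; ERF76920 lies between 53.7 and 82.5 CPM in PEG and at 0 in EUE.

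The difference between the experiments was similar in size and sign in control and in selected lines. PEG control against EUE control gave 1072 calls (2.94%), 659 higher in PEG (1.81%) and 413 lower (1.13%). PEG-1 and PEG-2 against the EUE epiline gave 3054 calls (8.39%), 1490 higher (4.09%) and 1564 lower (4.30%). The line means of these 2 comparisons share no library, but the spread of each ID came from 1 fit over all 12 libraries. Whether an ID passed the threshold was thus not decided separately on the 2 sides. Called in both were 996 IDs, all with the same sign, which is 92.9% of the control calls and 32.6% of the selected-line calls. Of the 1072 control calls, 1070 had the same sign in the selected lines, whether called there or not.

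Across all tested IDs the 2 log2 differences had r = 0.85 and the same sign for 29358 of 36410 (80.6%). Across IDs of at least 5 CPM r was 0.90 for joined, 0.95 for ERF-only and 0.94 for ERC-only IDs. These are descriptions across IDs, which are not independent replicates, and libraries of the same number enter both sides. The test of the difference between the 2 comparisons (edgeR) called 0 IDs (0% of those tested). Its unadjusted p was below 0.05 for 335 IDs, and 5 in 100 of those tested is 1820.5. That is fewer than evenly spread p-values would give, so the test was conservative and its 0 calls do not show equal differences. DESeq2 called 2. An effect past the threshold in the selected lines and not in the controls is therefore not shown to differ between them. The control count also rested on few libraries, with 300 calls without PEG control replicate 2, 662 without EUE control replicate 1 and 701 without EUE control replicate 3. The selected-line count was 1627 and 1330 without PEG-1 replicate 1 and 2, 1260 without PEG-2 replicate 2, and 1429 and 2023 without EUE epiline replicate 2 and 3.

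**Figure D5:**
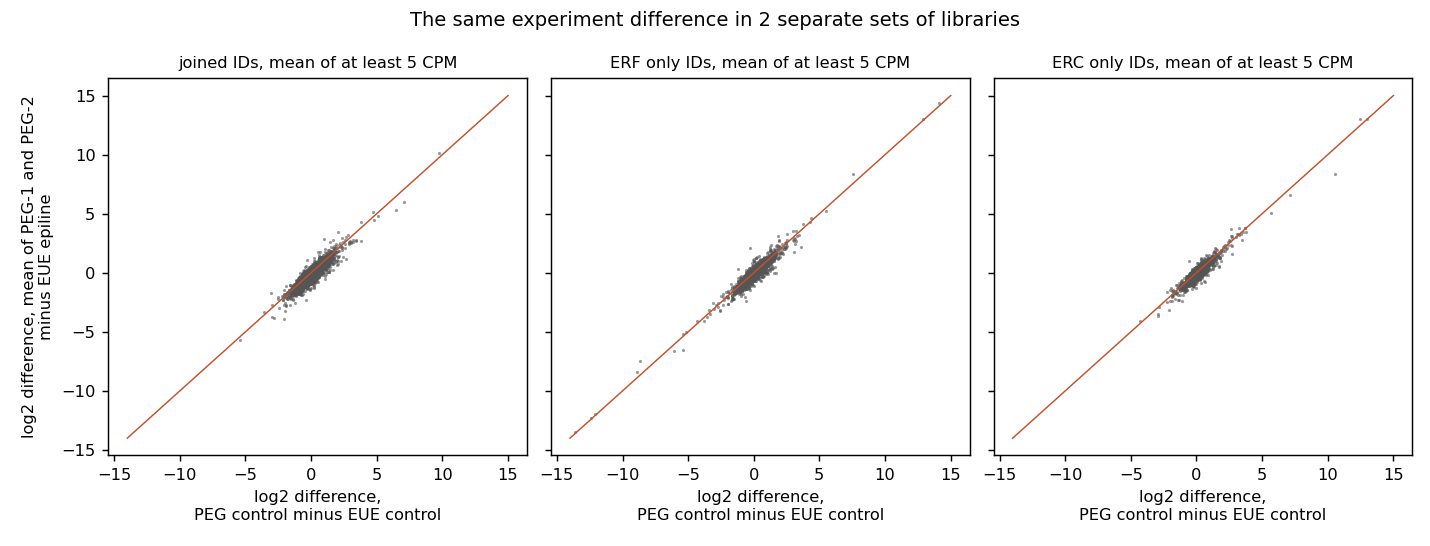
Log2 difference of PEG-1 and PEG-2 against the EUE epiline (vertical axis) plotted against that of PEG control against EUE control (horizontal axis), 1 point per tested ID of at least 5 CPM, 1 panel per ID class, with the line of equal values drawn. Points lie along it, with r of 0.90, 0.95 and 0.94 for joined, ERF-only and ERC-only IDs.

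Between whole libraries, the gap between experiments exceeded that between lines of 1 experiment. The Bray-Curtis distance, the percent of normalised counts that 2 libraries do not share, had a median of 15.4% between experiments (10.2% to 24.6%, 36 pairs), against 12.7% within a line (8.66% to 16.6%, 9 pairs). Between lines of 1 experiment it was 7.63% for same-numbered libraries (9 pairs) and 12.4% for others (12 pairs), so libraries of different lines with 1 number lay closer than libraries of 1 line. The ranges between experiments and within lines overlapped. The closest pair across experiments was replicate 1 of the 2 control lines, at 10.2%, and the farthest was replicate 2 of the same lines, at 24.6%. ERF-only IDs gave the largest distance between experiments, 19.8% against 14.4% for joined and 14.7% for ERC-only IDs, and within a line they gave 14.8% against 12.2% and 12.6%. The distance weighs IDs by their counts, and ERF91594 alone took a mean of 2.54% of all counts in PEG and 0.989% in EUE. The size of the ERF-only distance without ERF91594 was not tested.

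Of the summed variance of log2 CPM over all tested IDs, 43.3% lay between experiments, 15.9% between lines of 1 experiment and 40.8% within lines, with 1, 3 and 7 of the 11 degrees of freedom. The part between experiments was 36.7% for joined, 48.3% for ERF-only and 45.6% for ERC-only IDs. Large differences of few IDs weigh heavily in such a sum: for the median ID the part between experiments was 22.7%, and it passed 50% for 8008 IDs (22.0%).

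The direction that separated the experiments also ran through the replicates. In each PEG line replicate 2 held more of its counts than replicate 1 in the IDs called higher in PEG, and in both EUE lines replicate 2 held the least. These IDs took 21.0% to 26.6% of the counts in PEG libraries and 13.6% to 16.6% in EUE libraries, a gap that the calls themselves require. To keep the libraries apart, replicate differences within the selected lines were set beside the control-line difference between experiments, over 17413 IDs of at least 5 CPM. Replicate 2 minus replicate 1 of PEG-1 and PEG-2 had r = 0.38 with it. In the EUE epiline, replicate 1 minus replicate 2 had r = 0.38 with it, replicate 3 minus replicate 2 had r = 0.29, and replicate 3 minus replicate 1 had r = -0.14. The part that whatever the replicate numbers mark had in the difference between experiments was not tested.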

How the data were processed

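The deposited file holds read counts per ID and library, which the authors made and did not normalise. GSNAP and SAMtools appear in the submitters' processing notes, with no version. What build, annotation, counting program and strand setting were used is not stated in these sources, so reads shared by near-identical copies or overlapping genes could have been split, dropped or given to 1 copy. All values were even, with 0 odd ones, so a read pair may count as 2. Floors and minimums of 6 counts stand for 3 pairs and cover counting error only. Of the IDs, 0 matched the RefSeq gene table, and no sequence is shown.

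One edgeR 4.0.16 fit (R 4.3.3) over 12 libraries used TMM scaling, filterByExpr by line with a minimum count of 10, 1 mean per line and the quasi-likelihood F-test, with p-values adjusted by Benjamini-Hochberg over 36410 IDs. Standard errors come from the F statistic, and CPM from the TMM-scaled total. Log2 CPM had a prior count of 2. The common coefficient of variation between libraries of a line was 32.2%. Library measures were tested by exact permutation of 6 against 6. DESeq2 1.42.0 was an alternative and left 20 adjusted p-values NA. The fit was tested on simulated data drawn separately for each library, which does not cover deviations shared by same-numbered libraries. No replicates were identical: on halved counts the chi-square per ID within a line was 12.4 to 40.9.

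ID classes, abundance bins and the rule for named IDs (2 per class and direction, as given with their values) were chosen with earlier results of these data known. No gene list could be applied to unnamed IDs. Same-numbered libraries had r of at most 0.03 across experiments, under the minimum of 0.1, so the numbers were not taken to pair libraries of the 2 experiments. Within each experiment all same-numbered pairs exceeded it (3 in EUE and 6 in PEG). The deviations within a PEG line mirror each other, so each PEG r occurs for 2 pairs. Fits with a block for the numbers within each experiment, or with sums of same-numbered libraries, were added after the data were seen. What a number stands for is not in the labels, and p-values measure the spread between these libraries only.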

Additional observations from a re-analysis of the deposited data

Results flagged for a closer look

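In 2 of 39 groups of 6 libraries examined, 1 library lay apart from the other 5 by Dixon's test at the 95% level, which chance gives in about 1 group in 20. ERF-only IDs detected numbered 10282 in PEG-1 replicate 2, and the next PEG library had 10082. ERF91594 stood at 14031 CPM in EUE control replicate 1, and the next EUE library stood at 9650 CPM. Without that library the log2 difference of ERF91594 was still called (edgeR, adjusted p 0.000304).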

How the results depend on the processing

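Across all lines, 7474 IDs were called with DESeq2's size factors, 7371 with upper-quartile scaling, 7699 with no filter, 7230 with counts divided by 2, 8244 with library totals only, 9248 with 1 mean per experiment and 10094 by DESeq2, against 7448 reported. A replicate block with the same numbers across both experiments gave 8126, of which 3776 were higher in PEG. A 2-fold minimum gave 1189 calls (1.59% of joined, 5.08% of ERF-only and 4.42% of ERC-only IDs, and 1.25%, 4.50% and 3.92% with at least 4-fold). A filter of 5 CPM in 2 libraries gave 4294, with 506 for controls, 1682 for selected lines and 0.903%, 3.43% and 2.47% at 4-fold. DESeq2 gave 2428 for controls, 5699 for selected lines and 2 for their difference. With the block within each experiment, all lines gave 15350 calls (43.8%, 42.6% and 38.4% by class), controls 5709 and selected lines 10863. Sums of same-numbered libraries gave 1423 (2.15%, 5.53% and 4.86%, and 1.12%, 4.02% and 3.55% at 4-fold).

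Leaving out a whole line gave 4050 without EUE control (9.67%, 13.6% and 11.7%), 3998 without EUE epiline (9.55%, 13.7% and 11.3%), 3521 without PEG-1 (7.83%, 12.3% and 10.6%, with 1.55% of joined IDs at 4-fold) and 4721 without PEG-2 (11.4% of joined and 13.2% of ERC-only IDs). Fewer libraries entered these fits; the cause of the other changes was not tested. Leaving out 1 library gave 4112 to 8810 calls for all lines, 300 to 1067 for controls, 1260 to 3708 for selected lines and 0 for their difference. By class it gave 9.16% to 23.4% of joined, 13.4% to 24.4% of ERF-only and 11.2% to 21.8% of ERC-only IDs, and at 4-fold 1.67% to 3.62%, 5.38% to 7.99% and 4.71% to 6.86%. Without a library, 89 to 99 IDs were counted in PEG only and 66 to 74 in EUE only, against 33 and 28 with at least 20 counts and 136 and 109 with up to 2 counts allowed.

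The differences in ERF-only share (0.887 points), ERC-only share (-0.499) and share of the 100 most abundant IDs (2.82) had an adjusted exact p of 0.175 over line means and 0.467 over means of same-numbered libraries, 2 against 3, designs that cannot reach 0.05. Without ERF91594 the ERF-only difference became -0.432 and the joined one 0.745. The difference in ERC-only IDs detected changed sign after thinning to the smallest total (29.7), without EUE control replicate 2 (6.73) and without EUE epiline replicate 2 (12.7), and ran from -94.5 to 12.7 over left-out libraries. With a 2-fold minimum the calls of ERF91594 (adjusted p 0.0639), ERF60795-ERC24906 (0.538), ERF87900 (0.644), ERF85764-ERC33080, ERC42864 and ERC31276 (each 1) were lost. Counts limit the IDs under 1 CPM most, and no alternative could separate experiment from plant stock.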

Other observations

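Neighbouring IDs in number order moved together only weakly. The log2 differences of adjacent tested IDs had r = 0.06 for ERF-only IDs over 10484 pairs and r = 0.07 for ERC-only IDs over 8627 pairs. For IDs 10 places apart r was lower, at 0.008 and 0.019. Where both neighbours were called, 57.5% of ERF-only and 62.3% of ERC-only pairs had the same sign. Where both neighbours were called with at least 4-fold, 52 of 82 ERF-only pairs and 40 of 61 ERC-only pairs had the same sign. Over IDs of at least 5 CPM, adjacent ones had r = 0.084 for ERF only and r = 0.024 for ERC only. At 10 places apart these were 0.008 and 0.018. Adjacent joined IDs had r = 0.041 in ERF order and 0.032 in ERC order, and 0.011 and 0.018 at 5 CPM and more. Whether the numbers follow positions in a genome is not given in the sources used here.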
